A study of Mus musculus with 6 samples.

Results

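Trp53 and 9 genes known as targets or feedback partners of the p53 protein were followed in mouse liver. These 10 genes are Trp53, Cdkn1a, Mdm2, Ccng1, Bax, Bbc3, Sesn1, Zmat3, Eda2r and Gadd45a. They were taken by symbol from a table of raw counts for 55401 Ensembl genes, and each of the 10 symbols matched a single row. The rule uses symbols and no threshold on a measured value. The table holds 6 poly(A) RNA sequencing libraries of fresh liver from C57BL/6 mice. The OP group has 3 libraries from mice given okra polysaccharide (OP), long sugar chains from the okra plant, and the labels of these samples do not give their diet, dose or length of treatment. The HFCF group has 3 libraries from mice whose feed was rich in fat, cholesterol and fructose (HFCF), a feed used to bring on fatty liver. No group on a standard diet was analysed here, and sex, age and the number of animals behind a library are not given in the labels. Nothing in the labels says whether each library came from its own animal, and p-values here rest on a spread between libraries that may be technical.

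The p53 protein, encoded by Trp53, is a transcription factor that is held at a low level by the ubiquitin ligase Mdm2 and becomes stable after DNA damage and other stress. It then raises genes that stop the cell cycle, such as Cdkn1a, genes that open mitochondria in apoptosis, such as Bax and Bbc3, and Mdm2 itself, which closes a feedback loop. Regulation is mainly at the level of the protein, so target transcripts are commonly read as a sign of p53 activity. In hepatocytes p53 is also known for effects on lipid and glucose metabolism.

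The p53 protein binds as a tetramer to a pair of decamers that follow the p53 consensus. RefSeq promoter windows (build GRCm38.p6, from 250 bases before to 50 bases after an annotated start) were at hand for 9 of the 10 genes, in 13 windows. Windows were searched for the p53 decamer consensus without mismatch, which reads the same on both strands. They were also searched for a pair of decamers at most 3 bases apart with at most 2 mismatches to the consensus in all. A decamer was found in 7 of the 13 windows, against 8.36% of all 32851 windows in the table. A pair was found in 4 of the 13 windows, those of Bax, Ccng1, Cdkn1a and Sesn1, against 3.59% of all windows. With a single mismatch or none, the share of all windows was 0.393%, and the pairs of Bax, Ccng1 and Cdkn1a were of that kind. The pairs are shown because, at the limit of 2 mismatches, they set these 4 genes apart by their sequence, independently of any count. The best pairs of Bbc3, Trp53 and Gadd45a had 3 mismatches, a limit met by 21.3% of all windows. In the other windows of Cdkn1a and Sesn1 the best pairs had 5. The genes were chosen for their known ties to p53, and some have several windows. These shares therefore do not test whether such sites are more common here. The decamers are in capitals, and bases between them are in lower case.
Bax: AAGCATATCCcAGGCAAGCTT
Ccng1: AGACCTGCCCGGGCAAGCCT
Cdkn1a: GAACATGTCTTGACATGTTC
Sesn1: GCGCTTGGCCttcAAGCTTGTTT
A match is a description of the letters, and the absence of a match in a window says only that these letters are not in it.

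The 250 bases before the start are shown for Cdkn1a, Ccng1 and Sesn1, and not for Bax, the other gene with a pair. The pair is in capitals, any bases between the decamers included. The first is the upstream start of Cdkn1a (chr17:29090729-29090978, GRCm38.p6, plus strand), in which the pair lies from 51 to 32 bases before the start.
Cdkn1a: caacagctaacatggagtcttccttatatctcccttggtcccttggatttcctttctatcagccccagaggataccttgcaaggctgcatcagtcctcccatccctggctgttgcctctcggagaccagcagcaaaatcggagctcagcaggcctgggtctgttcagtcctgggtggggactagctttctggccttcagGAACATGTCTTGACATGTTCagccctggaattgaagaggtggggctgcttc
In Ccng1 (chr11:40755287-40755536, GRCm38.p6, minus strand, read along the gene), the pair lies from 195 to 176 bases before the start.
Ccng1: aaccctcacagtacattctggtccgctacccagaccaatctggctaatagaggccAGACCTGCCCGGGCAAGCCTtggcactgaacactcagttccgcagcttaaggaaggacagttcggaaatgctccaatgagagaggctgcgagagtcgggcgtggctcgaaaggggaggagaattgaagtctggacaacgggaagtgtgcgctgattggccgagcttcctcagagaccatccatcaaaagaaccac
Sesn1 has annotated starts in 2 windows, and the pair lies from 186 to 164 bases before the downstream start (chr10:41887189-41887438, GRCm38.p6, plus strand).
Sesn1: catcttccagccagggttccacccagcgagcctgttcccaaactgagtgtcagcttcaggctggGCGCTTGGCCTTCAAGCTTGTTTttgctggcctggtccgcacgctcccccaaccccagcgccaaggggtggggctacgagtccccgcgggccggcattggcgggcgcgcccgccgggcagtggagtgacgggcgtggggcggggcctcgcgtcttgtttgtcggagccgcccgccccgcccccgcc
The counts do not separate transcripts by start, so a value below belongs to the gene as a whole.

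Total counts ranged from 50635853 to 61918541 in the OP libraries and from 46459980 to 58822973 in the HFCF libraries. The marker genes of hepatocytes summed to between 43670 and 69280 CPM (counts scaled to a common library size) in OP and between 31380 and 51740 CPM in HFCF, as the label liver implies, and 1 of these 8 genes, Cps1, was lower in OP. The share of counts in mitochondrial mRNAs averaged 9.31 ± 4.44% in OP and 18.3 ± 4.01% in HFCF (SD, n = 3 each). All values below are CPM scaled by edgeR's TMM factors, changes are log2 fold changes of OP minus HFCF with their standard error, and a gene passed where its p, adjusted by Benjamini-Hochberg over all 17394 genes tested, was under 0.05 in the edgeR quasi-likelihood test. The level of 3 counts, below which a gene is taken as not detected, was 0.0472 to 0.0624 CPM and covers counting error only.

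Of the 10 genes, 9 had enough counts to be tested, and 1 of them passed. Sesn1 fell in OP, none rose, and the other 8 did not pass. Of all tested genes, 6.73% passed in either direction, 3.26% as higher and 3.47% as lower, so 1 of 9 is close to the background. At an unadjusted p under 0.05, 1 of the 9 was higher (Ccng1) and 2 were lower (Trp53 and Sesn1), where 25.2% of all tested genes reached that level, 13.0% as higher and 12.2% as lower. DESeq2 called 1 higher (Ccng1) and 1 lower (Sesn1), where 15.1% of its tested genes passed, 7.7% as higher and 7.41% as lower. With limma-voom 0 were higher and 1 was lower (Sesn1), where 7.58% passed, 3.71% as higher and 3.87% as lower. The groups did not overlap in 4 of the 9 genes, which were Ccng1 on the higher side and Trp53, Bbc3 and Sesn1 on the lower. Over all tested genes this held for 31.2%, with 15.8% on the higher and 15.4% on the lower side. Over the 9 genes, 5 had a log2 fold change above 0 and 4 below, with a median of 0.07 and a range of -0.75 to 0.87. The median over all tested genes was 0.02. In bulk tissue, fewer cells of a type and less RNA per cell cannot be told apart.

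**Figure D1:**
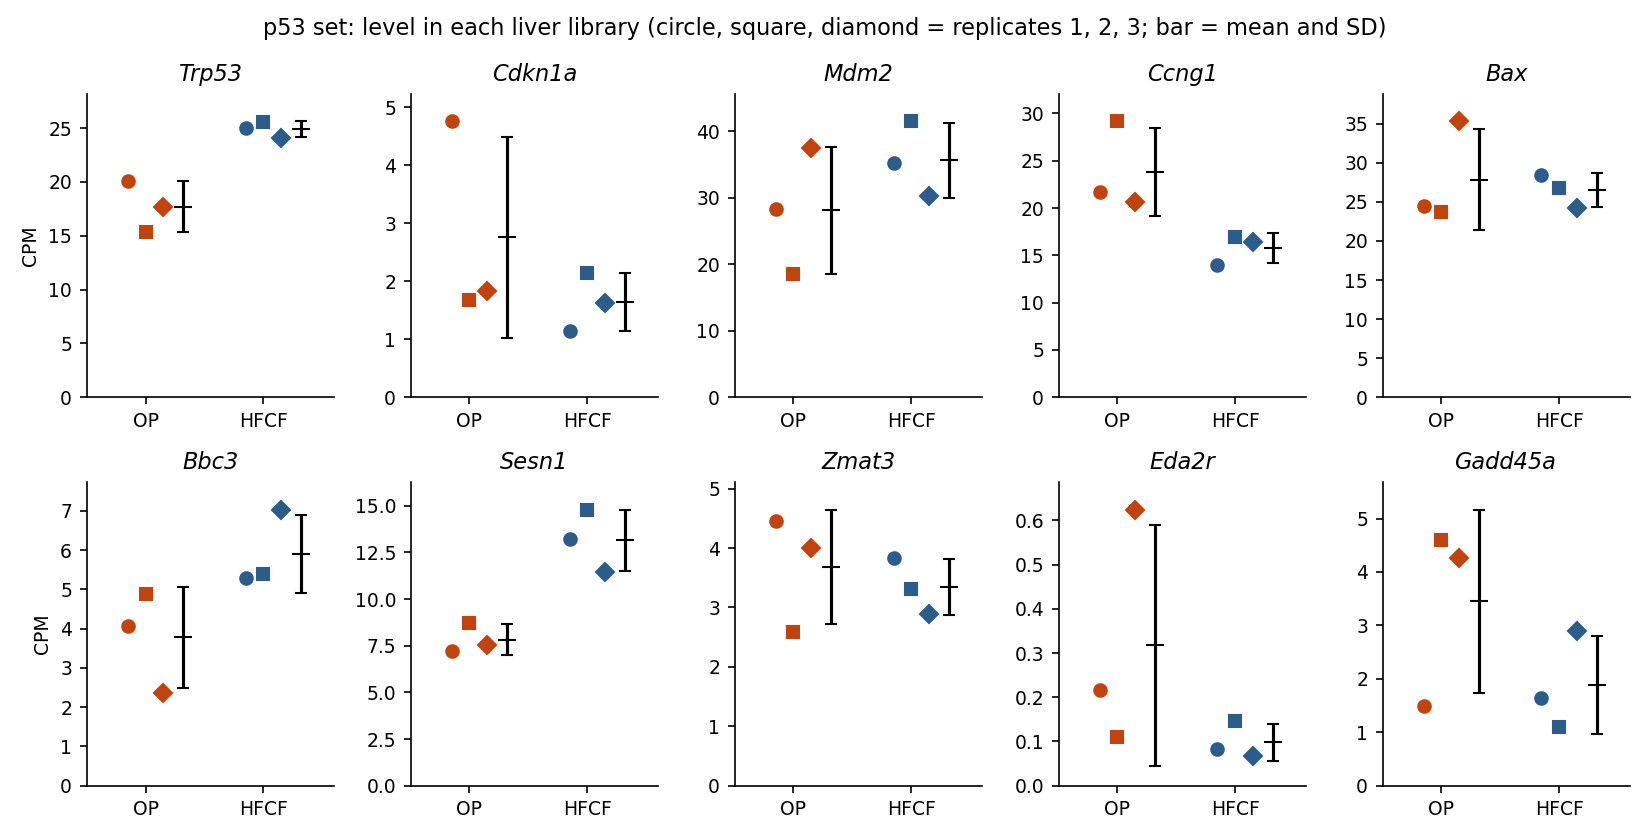
Level of each of the 10 genes in CPM (vertical axes from 0, each gene on its own scale) in the 3 OP and the 3 HFCF libraries. Points are libraries and bars are group means with SD; Sesn1, Trp53, Bbc3 and Ccng1 are the genes whose groups do not overlap, and in Cdkn1a the OP replicate 1 stands at 4.77 CPM.

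Trp53 itself had 20.1, 15.3 and 17.7 CPM in OP replicates 1 to 3, against 25.03, 25.6 and 24.1 CPM in HFCF replicates 1 to 3. Every OP library was below every HFCF library, and the HFCF libraries lay within a narrow band. The means were 17.7 ± 2.37 CPM in OP and 24.9 ± 0.741 CPM in HFCF. The log2 fold change was -0.49 ± 0.146 (SE), with an adjusted p of 0.079 in edgeR's quasi-likelihood test, so the transcript of the p53 gene did not pass. Over all 15 alternative settings it ranged from -0.59 to -0.40 and passed in none, with adjusted p from 0.0535 to 0.371.

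Mdm2, the ubiquitin ligase that marks p53 for breakdown and is in turn raised by it, had 28.4, 18.5 and 37.5 CPM in the OP libraries, against 35.2, 41.5 and 30.3 CPM in the HFCF libraries. OP replicate 2 was the lowest of the 6 and OP replicate 3 lay inside the HFCF range. The log2 fold change was -0.34 ± 0.251, with an adjusted p of 0.44 in the edgeR test. It was -0.11 without OP replicate 2 and -0.61 without OP replicate 3, and 0.25 with the mitochondrial mRNA share added to the model, so its direction differed between settings. Ccng1 encodes cyclin G1, which brings a phosphatase to Mdm2 and is among the most regularly induced p53 targets. It had 21.7, 29.2 and 20.6 CPM in OP and 13.96, 16.9 and 16.4 CPM in HFCF. All OP libraries were above all HFCF libraries. OP minus HFCF gave 0.60 ± 0.175 on the log2 scale, and the adjusted p was 0.0763 in the edgeR test and 0.0375 in DESeq2. With the mitochondrial share as a covariate it was 0.26, with an adjusted p of 0.625 in the edgeR test. Mdm2 and Ccng1, both targets of p53, therefore had fitted values on opposite sides of 0, and neither was called by edgeR.

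Cdkn1a encodes p21, the inhibitor of cyclin-dependent kinases through which p53 halts the cell cycle. Its level was 4.77, 1.68 and 1.83 CPM in the OP libraries, against 1.14, 2.14 and 1.63 CPM in the HFCF libraries. OP replicate 1 was above all the others, and OP replicates 2 and 3 lay inside the HFCF range. The difference was 0.75 ± 0.465 on the log2 scale, with an adjusted p of 0.36 in the edgeR test. Without OP replicate 1 it was 0.10, with an adjusted p of 0.92, and with all 6 libraries and mitochondrial share in the model it was 0.13, with an adjusted p of 0.953. Behind these values stand 286, 107 and 88 counts in OP and 55, 103 and 99 counts in HFCF. Gadd45a, a growth arrest gene that responds to p53 and to other stress, had 1.48, 4.61 and 4.27 CPM in OP and 1.64, 1.102 and 2.89 CPM in HFCF. Here OP replicate 1 was low and the other OP libraries were high, the reverse of Cdkn1a. The log2 fold change was 0.87 ± 0.498 (adjusted p = 0.318 in the edgeR test), and it ranged from 0.57 to 1.33 as each library was left out in turn. In GENCODE M21 Gadd45a shares 337 exon bases with E230016M11Rik on the opposite strand. That gene had 156, 143 and 272 counts in OP and 238, 231 and 176 in HFCF, beside 89, 293 and 205 in OP and 79, 53 and 175 in HFCF for Gadd45a. Whether reads were counted by strand is not stated, so reads of the shared stretch cannot be assigned.

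Bax, which opens the outer mitochondrial membrane in apoptosis, had 24.5, 23.8 and 35.3 CPM in OP and 28.5, 26.8 and 24.2 CPM in HFCF. OP replicate 3 was the highest and OP replicate 2 the lowest of the 6 libraries. On the log2 scale the change was 0.07 ± 0.182 (adjusted p = 0.847 in the edgeR test), and -0.13 without OP replicate 3. With mitochondrial share in the model it was 0.53 (adjusted p = 0.197). Bbc3 encodes PUMA, a trigger of apoptosis that acts on Bax through the BCL2 proteins. Its level was 4.07, 4.89 and 2.37 CPM in OP, against 5.29, 5.38 and 7.03 CPM in HFCF. The groups did not overlap, by a small margin between OP replicate 2 and HFCF replicate 1. The log2 fold change was -0.64 ± 0.295 (adjusted p = 0.219 in the edgeR test), and it ranged from -0.87 to -0.40 as each library was left out. With the mitochondrial share as a covariate it was -1.50 (adjusted p = 0.1).

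Sesn1 encodes sestrin 1, which restrains the growth kinase complex mTORC1 and is induced by p53 and by FOXO factors. Its level was 7.20, 8.74 and 7.54 CPM in the OP libraries, against 13.2, 14.8 and 11.5 CPM in the HFCF libraries. All OP libraries were below all HFCF libraries. Sesn1 fell to 7.83 ± 0.812 CPM in OP, against 13.1 ± 1.64 CPM in HFCF, a log2 fold change of -0.75 ± 0.168 with an adjusted p of 0.0375 in the edgeR test. Its value stayed between -0.84 and -0.69 over all 15 alternatives, while adjusted p ranged from 0.00754 to 0.257. As single libraries were left out, the call held without HFCF replicate 3 (adjusted p = 0.041). It was lost without OP replicate 1 (0.133), OP replicate 2 (0.0632), OP replicate 3 (0.0608), HFCF replicate 1 (0.157) or HFCF replicate 2 (0.171). It was also lost with no low-count filter (0.0571) and with mitochondrial share in the model (0.257), where the log2 fold change was -0.71 ± 0.278. Of 6 red cell markers, 4 were called lower in OP, the globin genes Hba-a1, Hba-a2, Hbb-bs and Hbb-bt. Alas2 went the other way, at 63.1 ± 6.07 CPM in OP and 50.3 ± 3.06 CPM in HFCF. It was not called (adjusted p = 0.178 in the edgeR test). The 6 markers together summed to 192 to 415 CPM in OP and 941 to 1768 CPM in HFCF. Among these markers Slc4a1 was at 0 in at least 1 library. The 8 Kupffer cell and macrophage markers gave 0 calls and summed to 152 to 252 CPM in OP and 263 to 345 CPM in HFCF. The sums of the lymphocyte, stellate cell, endothelial, cholangiocyte and adipocyte markers overlapped between OP and HFCF. The part of any of these cell types in the level of Sesn1 was not tested.

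**Figure D2:**
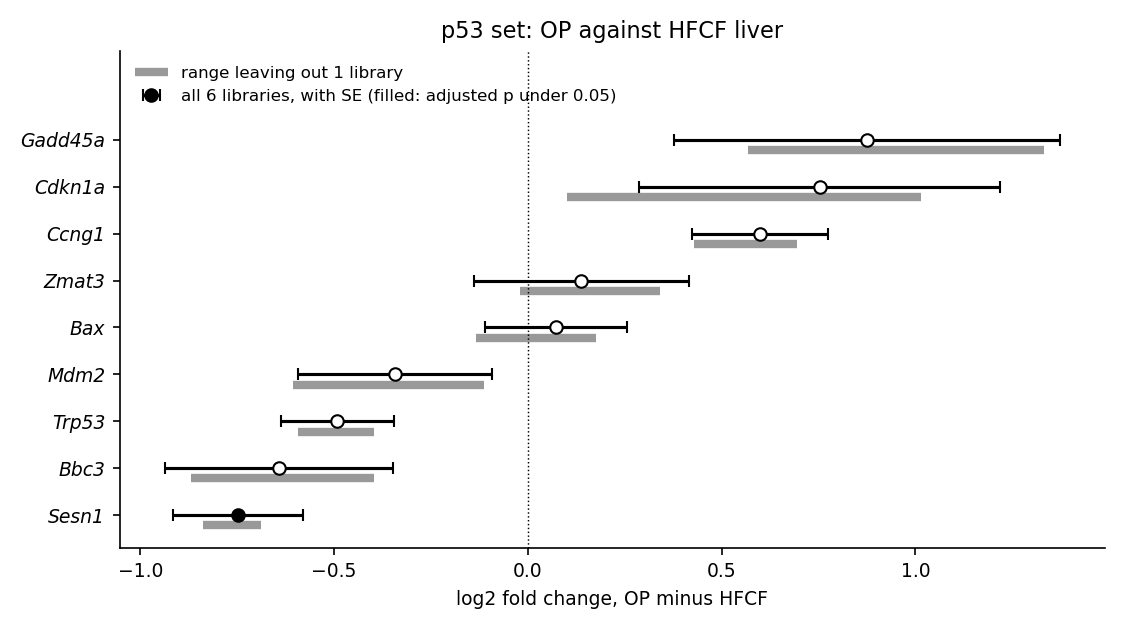
Log2 fold change of OP minus HFCF (horizontal axis) for the 9 tested genes, ordered by value. Circles are fits on all 6 libraries with SE, the filled circle is Sesn1 at -0.75, the only call among the 9, and grey bars are the range as each library is left out in turn; those of Bax and Zmat3 cross 0.

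Zmat3, a zinc finger protein that binds RNA and takes part in the control of splicing, had 4.45, 2.59 and 3.997 CPM in OP and 3.84, 3.31 and 2.89 CPM in HFCF. The OP libraries spanned the HFCF range on both sides. Its log2 fold change was 0.14 ± 0.277 (adjusted p = 0.802 in the edgeR test), and -0.02 without OP replicate 1 and 0.54 with mitochondrial share in the model (adjusted p = 0.575). Eda2r, the receptor of ectodysplasin A2 and a member of the TNF receptor family, was near the limit of detection, with 13, 7 and 30 counts in OP and 4, 7 and 4 counts in HFCF. It did not pass the low-count filter and was not tested. Summed over libraries, 50 counts in OP correspond to 0.291 CPM (95% exact Poisson interval 0.216 to 0.384) and 15 counts in HFCF to 0.0956 CPM (0.0535 to 0.158), intervals that cover counting error only. Per library the values were 0.217, 0.11 and 0.625 CPM in OP and 0.0829, 0.146 and 0.066 CPM in HFCF, so OP replicate 2 lay inside the HFCF range. Without the filter, edgeR gave a log2 fold change of 1.66 ± 0.994 and an adjusted p of 0.437.

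**Figure D3:**
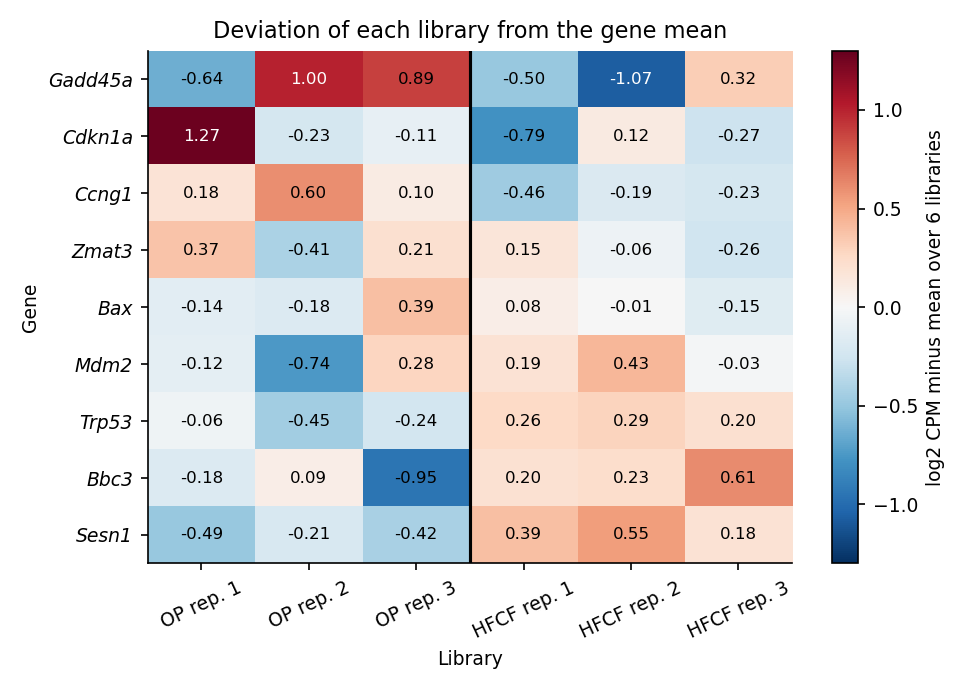
Deviation of each library from the gene mean in log2 CPM (colour and printed number), for the 9 tested genes in rows and the 3 OP and 3 HFCF libraries in columns. Cdkn1a is highest in OP replicate 1 (1.27) and Gadd45a in OP replicate 2 (0.996), while Mdm2 is lowest in OP replicate 2 (-0.74) and Bbc3 in OP replicate 3 (-0.95).

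The 10 genes did not share a pattern over the libraries. The library with the highest level was OP replicate 1 for Cdkn1a and Zmat3, OP replicate 2 for Ccng1 and Gadd45a, and OP replicate 3 for Bax and Eda2r. For Trp53, Mdm2 and Sesn1 it was HFCF replicate 2, and for Bbc3 HFCF replicate 3. The spread within OP, as the SD in percent of the mean, was 10.4% for Sesn1 and 13.4% for Trp53, against 12.5% and 2.98% for these genes in HFCF. It was 63.0% for Cdkn1a and 49.6% for Gadd45a in OP, against 30.5% and 48.9% in HFCF. Leaving out predicted genes and those with a mean under 1 CPM, 11858 genes were compared with Cdkn1a by the root mean square difference of centred log2 CPM over the 6 libraries. The nearest were Mad2l1, a spindle checkpoint gene, at 0.239, Tgtp1, an interferon-inducible GTPase gene, at 0.259, and Chrnb2, a nicotinic receptor subunit gene, at 0.291. Among the tested genes of the p53 set, the nearest to Cdkn1a was Zmat3 at 0.55, and Gadd45a was the farthest at 1.14. The smallest difference among 11858 genes cannot be weighed against the smallest within this set, because a larger pool tends to give a smaller minimum.

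Per kilobase of annotated exons, Bax was the most abundant of the 10, at 17.7 ± 4.12 CPM per kb in OP and 16.8 ± 1.39 CPM per kb in HFCF. In OP the order went on with Ccng1, Mdm2, Trp53, Sesn1, Gadd45a, Bbc3, Cdkn1a, Zmat3 and Eda2r. In HFCF it went on with Mdm2, Trp53, Ccng1, Sesn1, Bbc3, Gadd45a, Cdkn1a, Zmat3 and Eda2r. In OP the neighbours Ccng1 and Mdm2, Mdm2 and Trp53, Sesn1 and Gadd45a, Gadd45a and Bbc3, and Bbc3 and Cdkn1a overlapped between their libraries. In HFCF this held for Mdm2 and Trp53, Sesn1 and Bbc3, and Cdkn1a and Zmat3. Cdkn1a stood low among the 10, at 0.777 ± 0.489 CPM per kb in OP and 0.461 ± 0.141 CPM per kb in HFCF.

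**Figure D4:**
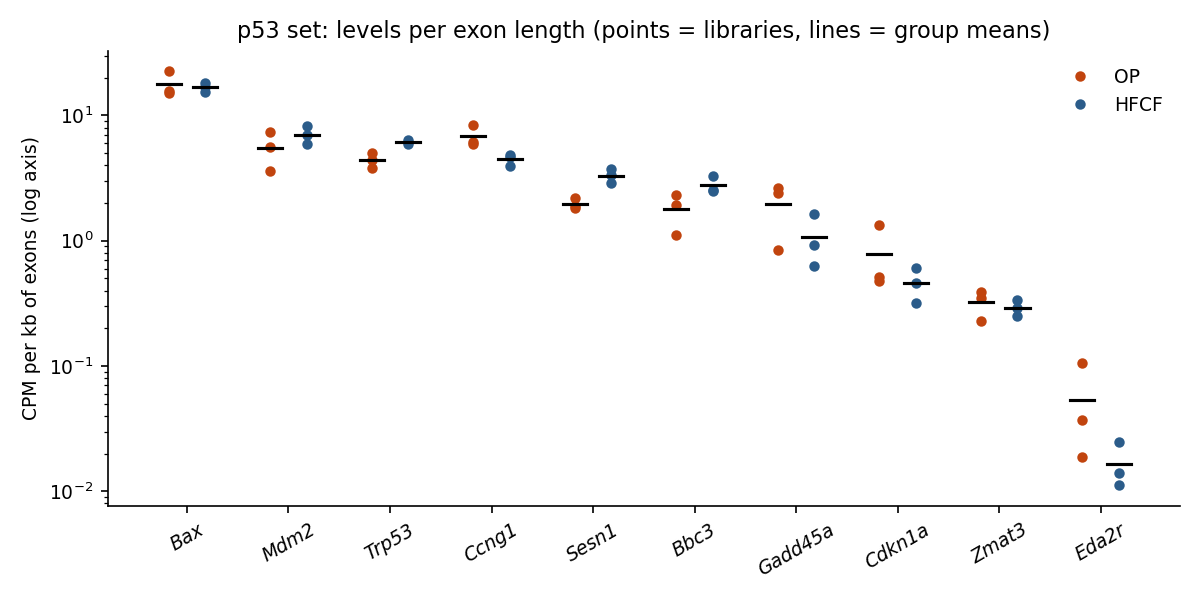
CPM per kilobase of exons (log axis) of the 10 genes, ordered by their HFCF mean, in OP (left of each pair) and HFCF (right). Points are libraries and lines are group means; Bax lies above 10 CPM per kb and Eda2r near 0.0538 in OP and 0.0167 in HFCF.

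Genes outside the set were read from lists of known p53 targets, p53 regulators and relatives of the 10. Of 40 other p53 targets, 38 were tested, and 2 of them rose, 0 fell and 36 stayed above the threshold, where 3.26% of all tested genes were called higher and 3.47% lower. The genes that rose were Perp, a membrane gene of p53-dependent apoptosis and cell contacts, and Dglucy, which encodes D-glutamate cyclase. Perp had 96.7, 96.5 and 87.8 CPM in OP and 43.8, 59.6 and 66.8 CPM in HFCF, a log2 fold change of 0.72 ± 0.175 (adjusted p = 0.047 in the edgeR test). Dglucy had 39.6, 36.2 and 39.1 CPM in OP and 25.1, 24.6 and 20.5 CPM in HFCF, a log2 fold change of 0.71 ± 0.138 (adjusted p = 0.0236 in the edgeR test). For both genes the OP libraries lay above the HFCF libraries. Perp kept its call without HFCF replicate 3 and lost it without any of the other 5 libraries (adjusted p 0.057 to 0.216), with RLE scaling (0.0509), with no low-count filter (0.0799) and with mitochondrial share in the model (log2 fold change 0.36, adjusted p 0.411). Dglucy lost its call without OP replicate 1 (0.0951), HFCF replicate 1 (0.104) or HFCF replicate 2 (0.131) and with that covariate (0.0719). The list had 16 tested members above 0 and 22 below, a median of -0.10 and 7 members at an unadjusted p under 0.05 in each direction, a level reached by 13.0% of all tested genes as higher and 12.2% as lower. DESeq2 called 4 of these targets higher and 3 lower, against 7.7% and 7.41% of its tested genes, and limma-voom 2 and 0, against 3.71% and 3.87%. These shares of all genes are also the background for each list that follows.

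Of 20 p53 regulators 19 were tested, and edgeR called 0, limma-voom 0 and DESeq2 1, Atr, with 1 higher and 2 lower at an unadjusted p under 0.05 in edgeR. Over all tested genes, DESeq2 called 15.1% and 25.2% reached that unadjusted level. Mdm4, the partner of Mdm2 in holding p53 down, was at 108 ± 26.3 CPM in OP and 114 ± 9.27 CPM in HFCF. Atr, a kinase that signals stalled replication, was at 11.9 ± 1.80 CPM in OP and 17.9 ± 2.27 CPM in HFCF (log2 fold change -0.58 ± 0.171, adjusted p = 0.0768 in the edgeR test). Without OP replicate 3 Atr was called lower (-0.71, adjusted p = 0.0471 in the edgeR test), and with mitochondrial share in the model it was -0.19 (adjusted p = 0.684). The acetyltransferase gene Kat5, which shares 426 exon bases with Rnaseh2c on the opposite strand, was at 10.2 ± 1.603 CPM in OP and 14.2 ± 0.921 CPM in HFCF (adjusted p = 0.117 in the edgeR test). The list's median was -0.01.

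Among 16 tested members of the BCL2 family, where Bax and Bbc3 belong, 0 were called by edgeR, DESeq2 or limma-voom, with 1 higher and 3 lower at an unadjusted p under 0.05 in edgeR, and the median was -0.09. The protective genes gave values on both sides of 0. Bcl2l1, which encodes BCL-XL, was at 20.7 ± 2.73 CPM in OP and 14.6 ± 3.89 CPM in HFCF (adjusted p = 0.174 in the edgeR test). Bcl2l2 was at 13.5 ± 0.767 CPM in OP and 19.3 ± 2.54 CPM in HFCF (adjusted p = 0.0747 in the same test). In GENCODE M21 Bcl2l2 shares 594 exon bases with Gm20521 on the same strand. That gene had 189 counts in HFCF replicate 3 and 0 in every other library. Bcl2 was at 1.58 ± 0.781 CPM in OP and 2.26 ± 0.71 CPM in HFCF. Bok, a relative of Bax, was at 6.57 ± 0.62 CPM in OP and 9.80 ± 1.69 CPM in HFCF (adjusted p = 0.106 in the edgeR test). Pmaip1, which encodes NOXA, another trigger of apoptosis and a p53 target, stayed near 1 CPM or lower, at 0.633 ± 0.444 CPM in OP and 0.712 ± 0.324 CPM in HFCF.

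The relatives of Sesn1, Gadd45a, Ccng1 and Cdkn1a also gave no call in edgeR. Of 6 relatives of the GADD45, sestrin and cyclin G families, edgeR, DESeq2 and limma-voom called 0, with 2 lower at an unadjusted p under 0.05 in edgeR and a median of -0.45. Beside Sesn1, the sestrin genes Sesn2 and Sesn3 had log2 fold changes of -0.49 ± 0.257 and -0.42 ± 0.172, with adjusted p of 0.272 and 0.178 in the edgeR test. Gadd45g had 8.56, 6.57 and 41.5 CPM in OP and 63.9, 39.98 and 56.9 CPM in HFCF, with OP replicate 3 inside the HFCF range (adjusted p = 0.179 in the edgeR test). Without OP replicate 3 its log2 fold change was -2.82 and it was called lower (adjusted p = 0.0065 in the edgeR test), and with mitochondrial share in the model it was -0.40 (adjusted p = 0.784). Gadd45b was at 2.89 ± 0.998 CPM in OP and 4.57 ± 1.82 CPM in HFCF. Gadd45a was thus above 0 in its fitted value while Gadd45b (-0.66 ± 0.367) and Gadd45g (-1.51 ± 0.628) were below, and the difference between them was not tested. Of 6 inhibitors of cyclin-dependent kinases 4 were tested, and edgeR and limma-voom called 0 and DESeq2 1, Cdkn2c, with 2 lower at an unadjusted p under 0.05 in edgeR and a median of -0.45, where 12.2% of all tested genes were lower at that level and DESeq2 called 7.41% lower. Cdkn2c was at 1.91 ± 0.241 CPM in OP and 3.93 ± 1.02 CPM in HFCF (adjusted p = 0.0679 in the edgeR test), and Cdkn1b, which encodes p27, at 15.0 ± 1.38 CPM in OP and 20.2 ± 0.604 CPM in HFCF (adjusted p = 0.0935). The log2 fold change of Cdkn2c was -1.04, and -1.24 without HFCF replicate 3, where it was called lower (adjusted p = 0.0418 in the edgeR test), and -0.59 with mitochondrial share in the model (adjusted p = 0.572).

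Cell cycle genes that p53 is known to repress through p21 were low in all 6 libraries. Of 20 tested, edgeR, DESeq2 and limma-voom called 0, with 1 lower at an unadjusted p under 0.05 in edgeR, and the median was -0.23. The members with the smallest p were Kif20a, a kinesin of cell division, at 0.682 ± 0.16 CPM in OP and 1.33 ± 0.258 CPM in HFCF, and Birc5, which encodes survivin, at 1.95 ± 0.869 CPM in OP and 3.34 ± 0.331 CPM in HFCF. Their adjusted p were 0.17 and 0.214 in the edgeR test. Kif20a shares 1271 exon bases in GENCODE M21 with Cdc23 on the opposite strand.

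**Figure D5:**
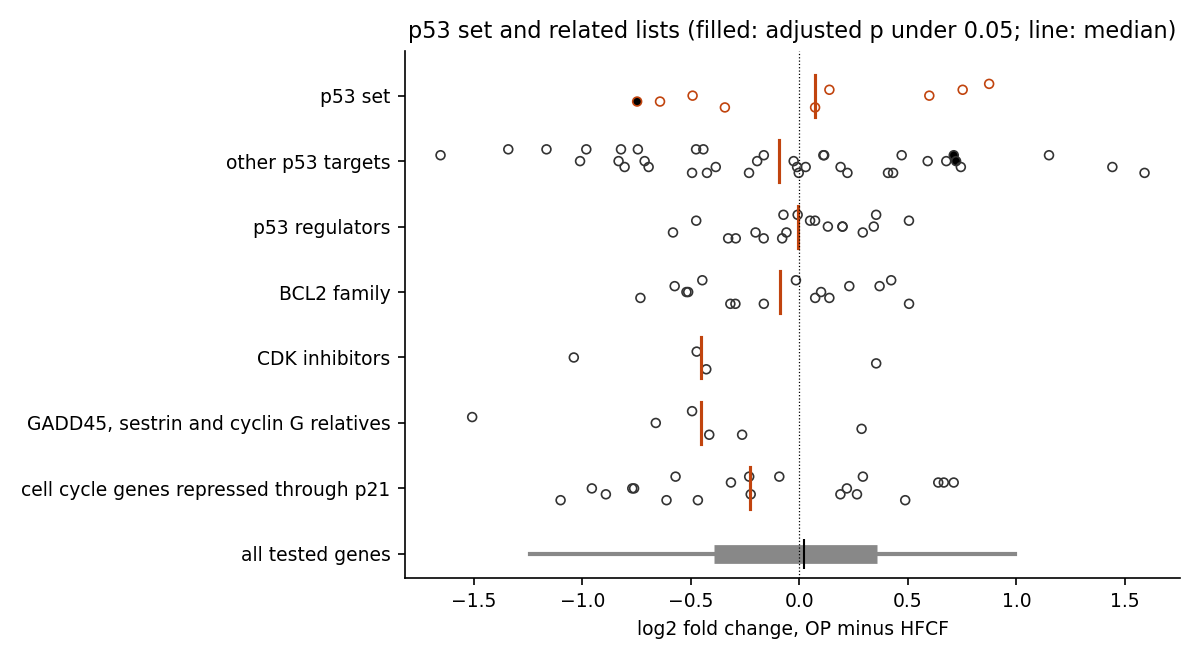
Log2 fold changes of OP minus HFCF (horizontal axis) for the tested genes of the p53 set and of 6 related lists, with a line at each median. Filled points passed (Sesn1 in the p53 set, Perp and Dglucy among the other targets), and the grey bar at the bottom gives the 5th to 95th percentile of all tested genes (-1.24 to 0.99, with the 25th to 75th percentile thicker and the median at 0.02).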

How the data were processed

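Per the labels' protocols, poly(A) RNA of fresh liver was made into dUTP libraries, which keep strand information, and sequenced as read pairs. Cutadapt 1.9, FastQC and the build GRCm39 are named in the submitters' processing notes; the aligner, the counter and whether strand was used in counting are not stated there. Raw counts per gene came as 1 table deposited by the authors.

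Ensembl identifiers were matched to symbols for 55141 of 55401 genes. GENCODE M21 (GRCm38, another build) gave only exon overlaps and exon lengths. Genes were kept by filterByExpr (17394 of 27893 with any count) and tested two-sided, OP minus HFCF, with edgeR 4.0.16 in R 4.3.3 (TMM, glmQLFit and glmQLFTest, Benjamini-Hochberg adjustment over all tested genes, threshold 0.05). Standard errors were taken as log2 fold change over the root of the F statistic. The libraries held 46459980 to 61918541 counts, and no pair of replicates agreed within sampling noise (chi-square per degree of freedom 46.2 to 350). With counts divided by 4, the SE of Sesn1 was 0.177 against 0.168, and that of Cdkn1a 0.461 against 0.465. The division rescales all counts alike and adds no sampling noise. These values therefore do not show whether depth or the spread between libraries limited precision.

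Alternatives were DESeq2 1.42.0, RLE scaling, limma-voom (limma 3.58.1), keeping all genes with counts, keeping genes at 1 CPM in 3 libraries, a block for the replicate number, leaving out each library, counts divided by 4, leaving out mitochondrial genes, and a term for mitochondrial mRNA share. Named outside the set were members of a list that passed, or the 2 with the smallest p where none did, and 7 close relatives. The members, lists and alternatives were chosen with earlier results of these data known. The tests were tried on simulated counts. Figures were drawn with matplotlib 3.10.9.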

Additional observations from a re-analysis of the deposited data

How the results depend on the processing

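Over 15 alternatives, the fitted values of Trp53, Cdkn1a, Ccng1, Bbc3, Sesn1 and Gadd45a kept their direction. In the p53 set, DESeq2 called 1 gene higher, against 0 in the edgeR fit. The 1 gene called lower, Sesn1, became 0 with no low-count filter, with the mitochondrial share as a covariate and with the replicate number as a block, and the count ranged from 0 to 1 as single libraries were left out. Over all related lists, the number of genes called higher went from 2 to 4 with DESeq2. It was 1 with RLE scaling, with no low-count filter and with the mitochondrial covariate. It was 0 with the replicate block and 0 to 3 without single libraries. The 1 gene called higher with the mitochondrial covariate was neither Perp nor Dglucy. The 0 called lower became 5 with DESeq2, 3 with a filter of 1 CPM in 3 libraries, 3 with counts divided by 4, 2 with the mitochondrial covariate, and 0 to 2 without single libraries. Values turned sign for Bax (-0.13 to 0.18), Zmat3 (-0.0211 to 0.34), Pmaip1 (-0.84 to 0.25) and Mdm4 (-0.27 to 0.0822) as libraries were left out. With the mitochondrial covariate they turned sign for Mdm2 (0.25), Mdm4 (0.33) and Bcl2 (0.50), and the cause was not tested. The mitochondrial share went largely with the group, so share and group cannot be told apart in that model. With the replicate block Sesn1 was at -0.75 (adjusted p = 0.112, edgeR), Perp at 0.74 (0.145) and Dglucy at 0.72 (0.108). Same-numbered libraries did not deviate together (correlations of 0.0229, -0.126 and -0.164 for numbers 1, 2 and 3). No library correlated best with its own number, and the labels do not say that numbers pair samples. Depth limits Eda2r most, with 4 to 30 counts per library.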

Other observations

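Several other p53 targets are given here, chosen after their values were seen. In some of them a single library stood far above all the others. Btg2, an antiproliferative gene, had 5.48, 6.89 and 2.85 CPM in OP and 12.7, 9.21 and 26.1 CPM in HFCF, a log2 fold change of -1.65 ± 0.433 (adjusted p = 0.0581 in edgeR's quasi-likelihood test). Rrm2b, the p53-induced subunit of ribonucleotide reductase, had 1.25, 1.81 and 1.54 CPM in OP and 2.43, 3.87 and 4.03 CPM in HFCF (log2 fold change -1.17 ± 0.31, adjusted p = 0.0607 in the edgeR test), and shares 734 exon bases with Gm49085 on the opposite strand. Gdf15, a stress-induced hormone gene, had 8.91, 5.76 and 3.91 CPM in OP and 1.12, 0.769 and 4.24 CPM in HFCF (log2 fold change 1.59 ± 0.616, adjusted p = 0.153 in the edgeR test). The groups did not overlap for Btg2 and Rrm2b and overlapped for Gdf15. Of the 38 tested other targets, the groups did not overlap for 6 on the higher and 6 on the lower side. Over all tested genes this held for 15.8% and 15.4%. The 6 higher ones were Perp, Dglucy, Fas, Dcxr, Rps27l and Aen, of which edgeR called Perp and Dglucy. The 6 lower ones were Btg2, Rrm2b, Apaf1, Ckap2, Pml and Sytl1, of which edgeR called 0.

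Plk3, a stress kinase gene, had 83.5, 54.7 and 391 CPM in OP and 130, 73.4 and 112 CPM in HFCF, so OP replicate 3 stood above all the others. Trp53inp1 had 68.7, 33.0 and 20.4 CPM in OP and 43.8, 34.3 and 44.3 CPM in HFCF, with OP replicate 1 the highest, as it was for Cdkn1a. Phlda3, an inhibitor of AKT signalling, had 0.683, 6.12 and 0.853 CPM in OP and 0.394, 1.16 and 1.88 CPM in HFCF. Ak1, an adenylate kinase gene, had 0.25, 14.5 and 0.291 CPM in OP and 0.622, 0.561 and 4.33 CPM in HFCF. For both, OP replicate 2 was the highest library and HFCF replicate 3 the highest of its group.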
